A study of Mus musculus with 13 samples.

Results

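The genes described are the GDNF family ligands and their receptors, 9 genes taken by symbol from the 40787 genes of the count table. They are the 4 ligand genes Gdnf, Artn, Nrtn, and Pspn, the receptor tyrosine kinase gene Ret, and the 4 co-receptor genes Gfra1, Gfra2, Gfra3, and Gfra4. All 9 were present in the table. Transcripts were counted by RNA sequencing of 13 mouse sciatic nerves, each sequenced as a single library. The nerves were taken at 5 d post crush (dpc) from mice labelled C57BL/6, which had been backcrossed repeatedly to that background. Injured samples were the stump distal to the crush, and the uninjured nerve of the other side served as the contralateral sample. Replicates of a group were different mice. Controls were homozygous for a floxed Rptor allele and carried no Cre, whereas RaptorKOs had the same alleles plus a tamoxifen-inducible CreERT2 transgene that drives recombination in Schwann cells (SCs). Rptor encodes Raptor, a subunit of the kinase complex mTORC1. Both genotypes received tamoxifen at 2 months of age, and 1 sciatic nerve was crushed 2 months after the last injection. The groups were control contralateral (n = 3), RaptorKO contralateral (n = 4), control injured (n = 3), and RaptorKO injured nerves (n = 3). RNA came from the whole nerve without its epineurium, so fewer cells of a type and less RNA per cell cannot be told apart in any value given here.

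GDNF family ligands are secreted, dimeric survival factors for sensory, motor, and autonomic neurons. Each prefers 1 co-receptor of the GFRα family, which is held in the membrane by a lipid anchor: GDNF binds GFRα1, neurturin (Nrtn) binds GFRα2, artemin (Artn) binds GFRα3, and persephin (Pspn) binds GFRα4. The ligand and co-receptor together engage RET, whose kinase domain signals through docking proteins, PI3-kinase, and phospholipase Cγ. Without RET, GDNF and GFRα1 can also act through the adhesion molecule NCAM and the kinase Fyn. In peripheral nerves, SCs that have lost their axons are known as a source of Gdnf and Artn and of the co-receptor Gfra1.

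Library totals ranged from 8200458 to 13581775 counts, and values are given after TMM scaling as CPM, the counts expected in a library of 1000000. Differences were tested with edgeR's quasi-likelihood test, adjusted by the Benjamini-Hochberg method over all tested genes. A call needed a fold change over 1.2 and an adjusted p below 0.05. Genes with 50 or more counts in at least 2 of the libraries compared were tested. Rptor was lower in RaptorKOs by a log2 fold change of -0.998 ± 0.12 (SE) in contralateral nerves (edgeR adjusted p = 5e-04) and of -0.68 ± 0.15 in injured nerves (edgeR adjusted p = 0.0167). Control replicate 3 stood apart on both sides, with 14462 and 15017 Xist counts and 10 to 20 counts of Y-linked genes, whereas the other 11 libraries had 4 to 17 and 1456 to 2338. This is the pattern of female tissue, and no RaptorKO library had it. The labels give no sex, but by these genes sex was not balanced between genotypes. Cell type markers also moved with genotype. In injured RaptorKO nerves 2 of 6 SC markers were lower, with a summed level of 1658 to 2101 CPM against 2479 to 2814 CPM in controls and no marker at 0 in every library of a group. All 5 endothelial markers and all 5 pericyte and smooth muscle markers were higher there. So were 4 of 5 tested mast cell, 2 of 5 fibroblast, and 1 of 4 tested perineurial markers, whereas 0 of 7 macrophage markers were called. Of all genes tested in injured nerves, 4.44% were called lower and 4.09% higher. In contralateral RaptorKO nerves 3 of 6 SC markers were lower. Markers of 3 other types were higher, 3 of 5 for fibroblasts, 4 of 6 tested for macrophages, and 2 of 5 tested for mast cells. Of the endothelial, perineurial, and pericyte and smooth muscle markers, 0 of 5 each were called. Among all genes tested in contralateral nerves, 5.68% were called lower and 4.49% higher. The mast cell markers summed to 81.2 to 141 CPM in these RaptorKOs and 13.4 to 59.2 CPM in contralateral controls.

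After crush the family was rearranged in both genotypes. In controls 6 of the 9 genes were tested, and 4 rose (Gdnf, Artn, Gfra1, and Gfra3) and 2 fell (Ret and Gfra2). Among all 12430 genes tested in this comparison, 32.4% were called higher and 32.9% lower (65.3% in either direction). In RaptorKOs 5 genes were tested, of which Gdnf, Artn, and Gfra1 rose and Gfra2 fell, against 30.5% of all 12515 tested genes called higher and 28.5% lower. Gdnf and Artn in both genotypes, and Gfra3 in controls, passed the count minimum only through the injured nerves, so they had to be higher there to be tested, and low members such as Nrtn and Gfra4 were not tested. Between genotypes, the called member was Gfra3, lower in injured RaptorKO nerves, among 6 members tested. Of all 12040 genes tested there, 4.44% were called lower and 4.09% higher. Gfra3 passed the count minimum in that comparison only through the injured controls, so it had to be higher in them to be tested. In contralateral nerves Ret, Gfra1, and Gfra2 were tested, and none was called or separated the groups. Of all 11878 genes tested there, 10.2% were called (5.68% lower and 4.49% higher) and 23.7% had groups that did not overlap. These comparisons share libraries, so they are not independent of each other.

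**Figure D1:**
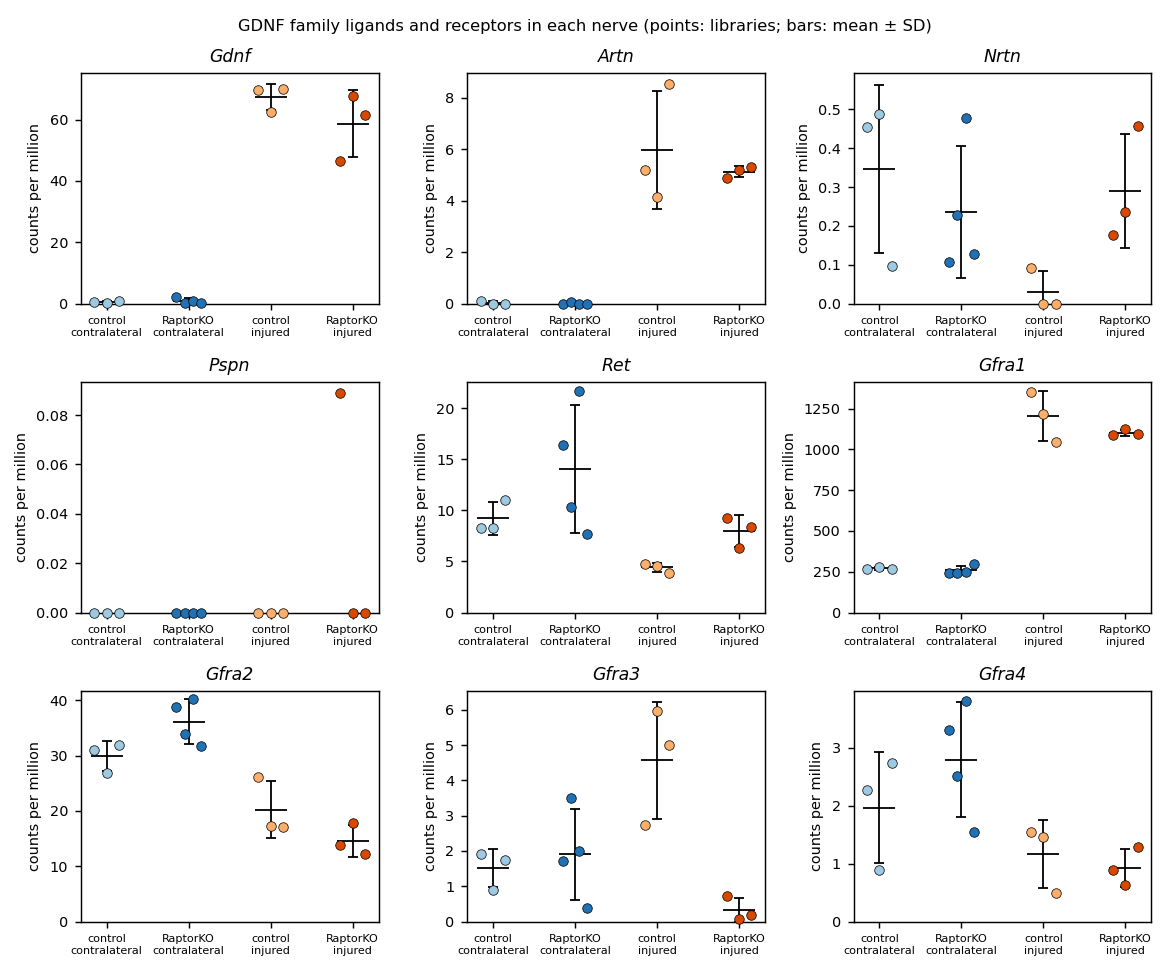
Level of each family member in CPM (vertical axes, linear, each panel with its own scale) in the 13 libraries, by group on the horizontal axis. Points are libraries, and bars show the mean ± SD, left out for Pspn and ending at 0 where the SD reaches below it. Gdnf lay between 46.5 and 69.9 CPM in the injured nerves and at or below 2.13 CPM in the contralateral nerves. The mean of Gfra3 was highest in injured controls and lowest in injured RaptorKOs, and the libraries of both groups overlapped those of RaptorKO contralateral nerves.

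Gdnf, which encodes the founding ligand of the family, lies on chromosome 15 of GRCm38 from 7810846 to 7837575 on the plus strand. Artn lies on chromosome 4 from 117926162 to 117929763 on the minus strand. The stretches before their start sites are shown because these are the 2 ligand genes that rose after injury. They were taken from RefSeq on the build GRCm38.p6 and read 5′ to 3′ along the strand of the gene. Capitals mark a match to CCAAT, the core of the element bound by the factor NFY. No match to the AP-1 element TGANTCA was found in the 3 stretches on either strand.
Gdnf, upstream start, plus strand, chr15:7809798-7810047: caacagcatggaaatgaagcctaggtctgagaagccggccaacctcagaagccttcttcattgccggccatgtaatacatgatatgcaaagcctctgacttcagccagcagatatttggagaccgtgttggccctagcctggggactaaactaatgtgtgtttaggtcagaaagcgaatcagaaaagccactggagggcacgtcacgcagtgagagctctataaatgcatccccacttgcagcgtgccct
Gdnf, inner start, plus strand, chr15:7813477-7813726: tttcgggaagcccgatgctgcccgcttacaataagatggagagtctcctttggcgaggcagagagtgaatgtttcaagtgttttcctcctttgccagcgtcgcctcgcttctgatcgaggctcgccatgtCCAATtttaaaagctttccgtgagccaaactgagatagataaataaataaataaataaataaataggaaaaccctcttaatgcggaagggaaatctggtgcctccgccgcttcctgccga
Artn, minus strand, chr4:117929764-117930013: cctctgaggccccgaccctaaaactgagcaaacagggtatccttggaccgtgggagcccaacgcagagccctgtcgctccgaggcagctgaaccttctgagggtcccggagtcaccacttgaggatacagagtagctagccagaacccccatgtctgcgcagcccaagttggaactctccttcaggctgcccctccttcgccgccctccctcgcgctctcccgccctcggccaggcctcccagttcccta
The single CCAAT match of Gdnf begins 120 bases before the inner start, which lies within the span of the gene given above. The upstream stretch ends at 7810047, before that span begins at 7810846, so the RefSeq start and the gene model used for the span differ. Among 32851 mouse promoters cut to the same 250 bases, 6.75% held TGANTCA and 33.8% held CCAAT, with both strands searched. Of the other members, Gfra1 held 1 CCAAT match and no TGANTCA, and Gfra4 held a TGANTCA match 34 bases before its inner start. Nrtn and Pspn held neither. Ret, Gfra2, and Gfra3 were not searched. The TGANTCA match of Gfra4 overlaps none of its CCAAT matches. A match in these letters is a description of the sequence and not a binding site.

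The ligand Gdnf went from near the limit of detection to a clear signal after crush. Control contralateral nerves held 0.637, 0.163, and 0.781 CPM of Gdnf (2 to 8 counts), and control injured nerves held 69.5, 62.4, and 69.9 CPM. All injured libraries lay far above all contralateral ones, and the 3 injured controls stood close together. Groups without overlap were found for 70.9% of all tested genes in this comparison and for 60.6% in that of the RaptorKOs. The fitted log2 fold change was 6.99 ± 0.26 (SE, 127-fold, 95% interval 6.44 to 7.59), and it passed the test (edgeR adjusted p = 5.79e-10). In RaptorKOs the contralateral nerves held 2.13, 0.305, 0.954, and 0.258 CPM, and the injured nerves held 46.5, 67.7, and 61.5 CPM. Here too the groups lay far apart, and RaptorKO contralateral 1 was the highest uninjured nerve. The log2 fold change was 6.01 ± 0.42 (64.5-fold, edgeR adjusted p = 6.75e-07). Between injured nerves of the 2 genotypes the levels of Gdnf overlapped, with RaptorKO injured 1 the lowest. The difference was -0.18 ± 0.14 on the log2 scale and did not pass (edgeR adjusted p = 0.533), and its 95% interval ran from -0.50 to 0.13. The response to injury differed between genotypes by -0.99 ± 0.70 on the log2 scale (edgeR adjusted p = 0.599), with an interval from -2.50 to 0.49, which rests on contralateral counts of 2 to 20. In contralateral nerves Gdnf was below the count minimum. An exact two-sided permutation test of its CPM gave p = 0.629 (adjusted over 11 such tests, 0.691). Without that minimum the fitted log2 difference was 0.79 (edgeR adjusted p = 0.669).

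Artn, the ligand of GFRα3, was almost absent from uninjured nerves. A single count was found among the 3 control contralateral libraries and a single count among the 4 RaptorKO ones. Injured controls held 5.21, 4.13, and 8.52 CPM (45 to 87 counts), and injured RaptorKOs held 4.89, 5.19, and 5.31 CPM (55 to 66 counts). The injured nerves of both genotypes lay above every uninjured nerve, and the controls spread more widely than the RaptorKOs. Set against each other as summed counts, 189 against 1 in controls gave a ratio of 197.5 after scaling, with a 95% counting interval of 35.0 to 7842. In RaptorKOs 179 against 1 count gave 208.8, with an interval of 37.0 to 8294. These intervals cover counting error alone. Artn passed the count minimum only through the injured nerves. Its rise passed the test in controls (edgeR adjusted p = 5.05e-06) and in RaptorKOs (edgeR adjusted p = 6.1e-06), while the fitted log2 fold changes, 7.15 ± 0.81 and 7.16 ± 0.72, depended on the prior count and were 4.83 and 4.67 with a prior count of 2. Between injured nerves of the 2 genotypes Artn overlapped, with a log2 difference of -0.20 ± 0.32 (edgeR adjusted p = 0.794, 95% interval -0.90 to 0.50). Without control injured 3, the highest library, the difference was 0.15.

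The other ligands were barely detected. Nrtn, which encodes neurturin and lies on chromosome 17 from 56751325 to 56757530, held at most 6 counts in any library. It had 5, 6, and 1 counts in control contralateral, 1, 3, 5, and 1 in RaptorKO contralateral, 1, 0, and 0 in control injured, and 2, 3, and 5 in RaptorKO injured nerves. Injured controls were the lowest group and overlapped neither the uninjured controls nor the injured RaptorKOs in CPM. Control injured 1 and control contralateral 3 each held 1 count (0.0913 and 0.0976 CPM), so they were apart through library scaling alone. Groups without overlap were found for 70.9% of all tested genes between sides in controls and for 26.2% between injured genotypes. In each of these comparisons an exact two-sided permutation test gave p = 0.1, the smallest that 3 against 3 libraries allow, so neither could pass (0.314 after adjustment over 11 tests). Summed over libraries, Nrtn had 1 count in injured and 12 in uninjured controls. Their ratio after scaling was 0.0871, with a 95% counting interval of 0.0020 to 0.589. This interval covers counting error alone and not the spread between nerves. Without the count minimum, the fit gave an edgeR adjusted p of 0.179 between sides in controls and of 0.493 between injured genotypes. Pspn, which encodes persephin and lies on the same chromosome, had 1 count in RaptorKO injured 1 and none in the other 12 libraries. A count of 0 allows up to 3 counts, or 0.229 to 0.387 CPM in these libraries.

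Ret, the signaling receptor, lies on chromosome 6 from 118151745 to 118197718. It was lower in injured than in uninjured nerves of controls and stood higher in RaptorKOs than in controls on both sides, without passing the test between genotypes. Uninjured controls held 8.28, 8.31, and 11.0 CPM, and injured controls held 4.75, 4.59, and 3.92 CPM. The groups did not overlap, and the fall was -1.08 ± 0.25 on the log2 scale (edgeR adjusted p = 0.0023). RaptorKO contralateral nerves held 16.4, 10.3, 21.6, and 7.73 CPM, and RaptorKO injured nerves held 9.24, 6.29, and 8.42 CPM. The uninjured RaptorKOs spread widely, with replicates 1 and 3 high, and replicate 4 lay within the range of the injured RaptorKOs. The log2 difference after injury in RaptorKOs was -0.82 ± 0.33 (95% interval -1.55 to -0.095) and missed the threshold (edgeR adjusted p = 0.0511), although 8 of 16 alternatives to the analysis called it. With the replicate number as a block, which sets each injured nerve against the contralateral nerve of the same number, the log2 difference was -0.98 ± 0.21 and passed (edgeR adjusted p = 0.00348).

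Every injured RaptorKO held more Ret than every injured control, as was so in one direction or the other for 26.2% of all tested genes. The log2 difference was 0.86 ± 0.27 (1.82-fold, 95% interval 0.28 to 1.45, edgeR adjusted p = 0.0727). DESeq2 (adjusted p = 0.0485) and the exact test of edgeR (adjusted p = 0.0282) called the difference, and the main test did not. In contralateral nerves the difference was 0.63 ± 0.31 (edgeR adjusted p = 0.245), with an interval from -0.062 to 1.32 and overlapping groups. The response to injury did not differ detectably between genotypes (log2 difference 0.24 ± 0.43, edgeR adjusted p = 0.875, interval -0.69 to 1.16). Neuron soma markers summed to 8.56 to 10.6 CPM in uninjured controls, 9.92 to 14.8 in uninjured RaptorKOs, 0.183 to 0.979 in injured controls, and 0.800 to 1.74 in injured RaptorKOs. Of these 5 markers, 3 were at 0 in every injured control and 2 in every injured RaptorKO. Their part in the levels of Ret was not tested.

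Gfra1 encodes the preferred co-receptor of GDNF and lies on chromosome 19 from 58235604 to 58455909. It was the member with the most counts in every library and rose with injury in both genotypes. Uninjured controls held 269, 279, and 264 CPM, and injured controls held 1349.7, 1216.5, and 1048 CPM. The groups stood well apart, with a log2 fold change of 2.13 ± 0.11 (4.37-fold, edgeR adjusted p = 1.14e-08). RaptorKO contralateral nerves held 243, 245, 251, and 295 CPM, and RaptorKO injured nerves held 1089, 1123, and 1097 CPM. The rise was 2.09 ± 0.098 (4.25-fold, edgeR adjusted p = 4.69e-08), and the injured RaptorKOs lay close together within the range of the injured controls. The log2 differences between genotypes were -0.11 ± 0.12 in injured nerves (edgeR adjusted p = 0.672, 95% interval -0.37 to 0.15) and -0.049 ± 0.088 in contralateral nerves (edgeR adjusted p = 0.788, interval -0.24 to 0.15). The difference between the 2 responses was -0.060 ± 0.14 (edgeR adjusted p = 0.913). The annotation places the antisense gene Gm16277 within Gfra1, and the strand setting of the counting is not given in the sources used here, so a share of the Gfra1 counts could come from it.

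Gfra2, the co-receptor gene for neurturin on chromosome 14 from 70890120 to 70979838, moved the opposite way from Gfra1. Uninjured controls held 31.0, 26.9, and 32.0 CPM and injured controls 26.2, 17.3, and 17.1 CPM. The groups did not overlap, but injured control 1 came close to the lowest uninjured nerve. The fall was -0.59 ± 0.17 on the log2 scale (edgeR adjusted p = 0.0103), and it did not pass without control injured 2 (edgeR adjusted p = 0.0552) or without both libraries of control replicate 3 (edgeR adjusted p = 0.0957). RaptorKO contralateral nerves held 38.7, 34.0, 40.2, and 31.7 CPM and RaptorKO injured nerves 13.8, 17.8, and 12.3 CPM. The RaptorKO groups stood further apart, with a fall of -1.31 ± 0.16 (2.48-fold, edgeR adjusted p = 5.33e-05). The fall differed between genotypes by -0.74 ± 0.25 on the log2 scale, with an interval from -1.27 to -0.21, and this difference did not pass after adjustment (edgeR adjusted p = 0.161, unadjusted p = 0.00986). RaptorKOs differed from controls by -0.45 ± 0.22 in injured nerves (edgeR adjusted p = 0.256) and by 0.29 ± 0.12 in contralateral nerves (edgeR adjusted p = 0.161), with overlapping groups on both sides.

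**Figure D2:**
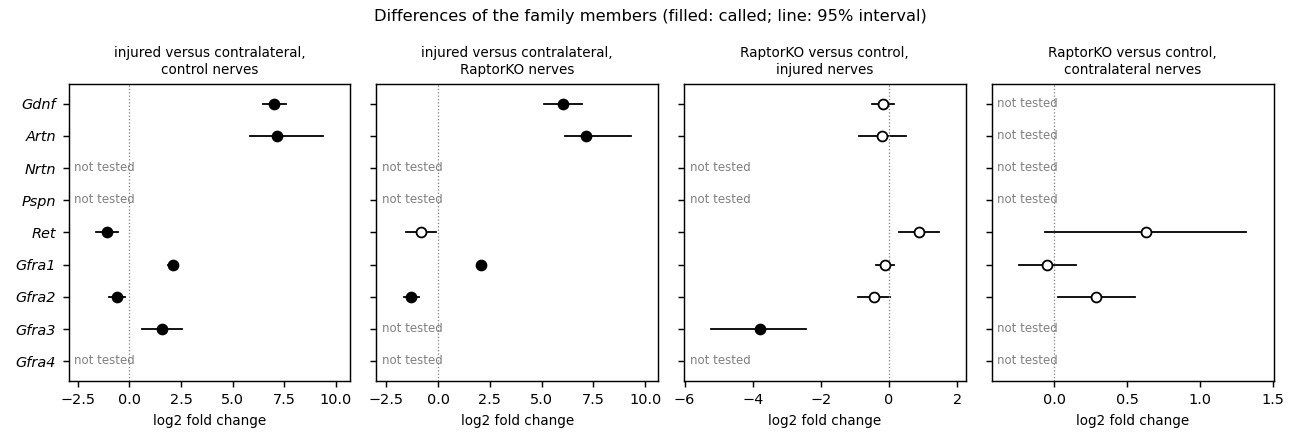
Log2 fold change of each member (horizontal axes, with a scale of their own in each panel) in 4 comparisons, with 95% intervals as lines and filled points for called genes. Gdnf, Artn, and Gfra1 lie to the right of 0 after injury in both genotypes, and Gfra3 is the filled point left of 0 between injured RaptorKOs and controls.

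Gfra3, the co-receptor gene for artemin on chromosome 18, was the single member called between genotypes after crush. Injured controls held 2.74, 5.96, and 4.99 CPM (30, 65, and 51 counts), and injured RaptorKOs held 0.711, 0.0786, and 0.183 CPM (8, 1, and 2 counts). No injured RaptorKO came near an injured control. The log2 difference was -3.79 ± 0.63 (95% interval -5.22 to -2.45, edgeR adjusted p = 0.00425), the size of which is uncertain at such counts. Summed counts of 146 against 11 gave a ratio of 14.4 between injured controls and RaptorKOs after scaling. Its 95% counting interval of 7.84 to 29.6 covers counting error alone and not the spread between nerves. Gfra3 passed the count minimum only through the injured controls, and without control injured 2 or control injured 3 it fell below it. When the genes of the full comparison were kept, the difference was -3.55 without control injured 2 (edgeR adjusted p = 0.0221) and -3.72 without control injured 3 (edgeR adjusted p = 0.0183).

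Uninjured nerves did not show this separation. Gfra3 had 1.91, 0.896, and 1.76 CPM in control contralateral nerves and 1.71, 3.51, 2.00, and 0.387 CPM in RaptorKO contralateral nerves. These ranges overlapped, and an exact two-sided permutation test gave p = 0.743. Fitted without the count minimum, the log2 difference between these groups was 0.36 (edgeR adjusted p = 0.784). Gfra3 rose with injury in controls by 1.56 ± 0.44 on the log2 scale (edgeR adjusted p = 0.00781). In RaptorKOs the mean was 1.90 ± 1.28 CPM (SD, n = 4) before and 0.324 ± 0.339 CPM (SD, n = 3) after injury, with RaptorKO contralateral 4 inside the injured range (exact two-sided permutation test, p = 0.114, 0.314 after adjustment). A fit without the count minimum gave -2.53 for this fall (edgeR adjusted p = 0.0201). The difference between the 2 responses was -4.17 ± 0.99 on the log2 scale (edgeR adjusted p = 0.0386), in a comparison that called 1.41% of 12851 genes lower and 1.07% higher. The interaction was not a call in 10 of 13 analyses without 1 library, nor without both libraries of control replicate 3 with the genes of the full comparison kept (edgeR adjusted p = 0.133). The summed SC marker level was lower in the same injured RaptorKOs, with Sox10, a transcription factor of the SC lineage, at a log2 difference of -0.30 ± 0.15 (edgeR adjusted p = 0.301). The part of SC markers in the level of Gfra3 was not tested.

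Gfra4, the co-receptor gene for persephin on chromosome 2 from 131039632 to 131043088, was below the count minimum in every comparison. It had 2.27, 0.896, and 2.73 CPM in uninjured controls and 1.55, 1.47, and 0.490 CPM in injured controls. RaptorKO contralateral nerves held 3.31, 2.52, 3.81, and 1.55 CPM, and RaptorKO injured nerves held 0.889, 0.629, and 1.28 CPM. The RaptorKO groups did not overlap, as was so for 60.6% of all tested genes in that comparison, and the control groups did. Exact two-sided permutation tests gave p = 0.0571 for injury in RaptorKOs, the smallest that 3 against 4 libraries allow, and p = 0.3 for injury in controls (0.314 and 0.629 after adjustment). A fit without the count minimum gave a log2 fold change of -1.56 in RaptorKOs (edgeR adjusted p = 0.0267) and of -0.71 in controls (edgeR adjusted p = 0.379). Between genotypes it gave -0.31 in injured nerves (edgeR adjusted p = 0.879) and 0.52 in contralateral nerves (edgeR adjusted p = 0.624). Gfra4 overlaps the microRNA gene Mir6973b on the same strand, so reads of the 2 genes could be mixed.

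To set levels of different genes side by side, CPM were divided by the length in kb of all annotated exons of a gene. The transcripts in use may be shorter than this, so the order of the genes is approximate. On this scale Gfra1 was the highest member in all groups, at 49.5 ± 1.40 CPM per kb (SD, n = 3) in uninjured and 220 ± 27.6 in injured controls. In uninjured controls the order went on with Gfra2 (8.47 ± 0.767), Ret (1.36 ± 0.233), Gfra4 (0.909 ± 0.441), Gfra3 (0.762 ± 0.274), Nrtn (0.339 ± 0.212), and Gdnf (0.143 ± 0.0880). From Ret to Gdnf each neighbour overlapped the next. In injured controls Gdnf stood second, at 18.3 ± 1.16 CPM per kb, above Gfra2 (5.72 ± 1.47), Artn (2.47 ± 0.952), Gfra3 (2.29 ± 0.828), and Ret (0.653 ± 0.0652). Artn and Gfra3 overlapped, whereas Gdnf, Gfra2, and Ret were each separate from the member above them. In injured RaptorKOs the order was Gfra1 (201.4 ± 3.23), Gdnf (15.9 ± 2.97), Gfra2 (4.13 ± 0.804), Artn (2.13 ± 0.0898), and Ret (1.18 ± 0.225), and Gfra3 stood at 0.162 ± 0.170, near Nrtn and Pspn.

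The co-receptor pool was nearly all Gfra1 after injury. Per length, Gfra1 made up 83.0 ± 2.45% (SD, n = 3) of the summed level of the 4 co-receptors in uninjured controls and 96.3 ± 0.054% in injured controls. In RaptorKOs the shares were 79.0 ± 3.76% (n = 4) and 97.7 ± 0.257% (n = 3). The share of Gfra2 went from 14.2 to 2.48% in controls and from 17.2 to 2.00% in RaptorKOs. Gfra3 kept a share near 1% in controls (1.28% uninjured, 1.03% injured) and went from 1.63 to 0.0795% in RaptorKOs. The level of Gfra1 was 37.1 ± 6.49 times that of Ret in uninjured controls and 336 ± 12.7 times in injured controls. In injured RaptorKOs the ratio was 176 ± 39.6, and its range of 146 to 220 did not reach the control range of 328 to 351. These shares and ratios rest on the same exon lengths, are descriptions, and were not tested.

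**Figure D3:**
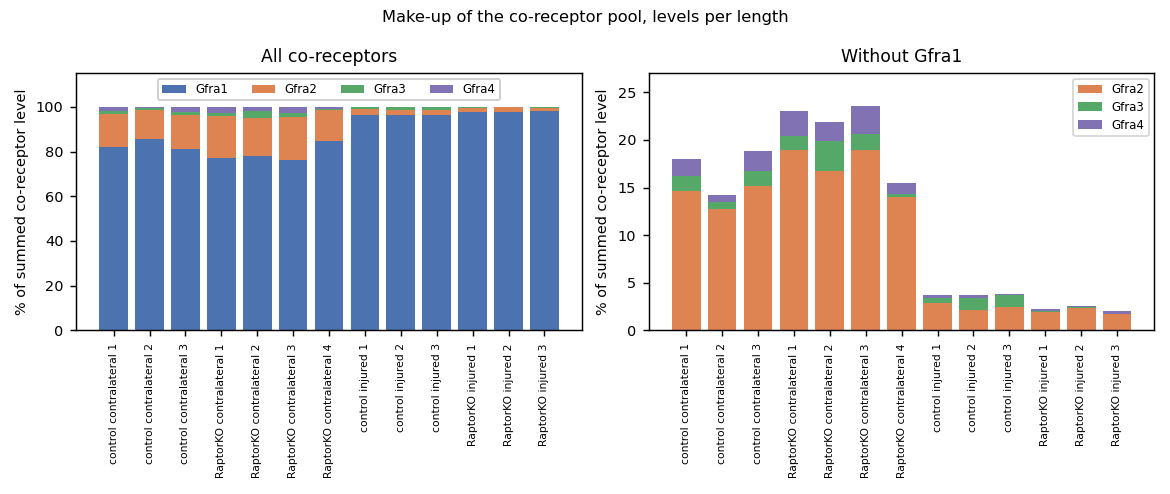
Share of each co-receptor gene in the summed co-receptor level per length (vertical axes in percent) in every library, with all 4 genes on the left and without Gfra1 on the right. Bars are single libraries, and Gfra1 makes up over 96% in all 6 injured nerves and 76.4 to 85.8% in the 7 uninjured nerves.

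Genes that act around the receptors were followed in 3 lists chosen for their role. The first holds 25 adaptors and transducers of RET. Injury called 10 of its 21 tested genes lower and 8 higher in controls, and 8 of 22 lower and 8 higher in RaptorKOs. These shares (85.7 and 72.7%) stand beside 65.3 and 58.9% over all tested genes. The largest rise in controls was that of Dok4, a docking protein, at 3.55 ± 0.14 on the log2 scale (edgeR adjusted p = 1.15e-09), followed by the docking proteins Gab2 (1.97 ± 0.12) and Dok1 (1.21 ± 0.25). Rap1gap, an inhibitor of the GTPase Rap1, fell by 2.32, Pik3r1, a regulatory subunit of PI3-kinase, fell by 2.09, and the docking protein Gab1 fell by 1.70. In RaptorKOs Rap1gap (-3.00), Pik3r1 (-1.95), and Gab1 (-1.34) were also called lower, and Gab2 (2.27), Dok4 (2.18), and Dok2 (1.59), another docking protein, were called higher.

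Between genotypes, 2 of 22 tested adaptors were lower and 2 higher in injured RaptorKO nerves (18.2%, beside 8.54% over all tested genes). Dok4 had 75.7 to 98.5 CPM in injured controls and 22.7 to 45.3 CPM in injured RaptorKOs. The groups stood apart, with a log2 difference of -1.42 ± 0.22 (edgeR adjusted p = 0.00322). Pik3r1 was lower by a log2 difference of -0.37 ± 0.10 (edgeR adjusted p = 0.0456), a call that was lost without any 1 of 5 of the 6 libraries (highest edgeR adjusted p = 0.199). Plcg1, the phospholipase Cγ1 that docks on active RET, had 29.2 to 31.6 CPM in injured controls and 52.6 to 63.0 CPM in injured RaptorKOs (log2 difference 0.89 ± 0.13, edgeR adjusted p = 0.00184). The scaffold gene Shank3 was higher as well (1.02 ± 0.18, edgeR adjusted p = 0.00536). In contralateral nerves Pik3r1 was lower (-0.49 ± 0.074, edgeR adjusted p = 0.00245) and Rap1gap higher (0.95 ± 0.17, edgeR adjusted p = 0.00656). These are 2 of 21 tested genes (9.52%, beside 10.2% over all tested genes). The response of Dok4 to injury differed between genotypes by -1.40 ± 0.33 (edgeR adjusted p = 0.0387), which failed without most single libraries (edgeR adjusted p up to 0.106).

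The second list holds 12 alternative receptors, distant relatives, and modulators. Injury called 5 of 10 tested genes lower and 3 higher in controls, and 5 lower and 4 higher in RaptorKOs. These shares (80 and 90%) stand beside 65.3 and 58.9% over all tested genes. The phosphatase receptor Ptprf (-2.26 ± 0.14), the sorting receptor Sort1 (-1.30 ± 0.095), and the membrane proteoglycan Sdc3 (-1.21 ± 0.13) led the falls in controls on the log2 scale. The sorting receptor Sorl1 (2.16 ± 0.26), the hepatocyte growth factor receptor Met (2.07 ± 0.14), and the integrin subunit Itgb1 (0.67 ± 0.098) rose. In RaptorKOs Ptprf (-2.09), Ncam1 (-1.49), and Sort1 (-1.40) fell most, while Met (2.35), Itgb1 (0.59), and Lrig1 (0.28), a membrane inhibitor of growth factor receptors, were called higher. Sorl1 was called higher there as well, with overlapping groups (0.99 ± 0.27, edgeR adjusted p = 0.00919). The Lrig1 call failed without RaptorKO contralateral 2 or 4 or RaptorKO injured 1 (edgeR adjusted p up to 0.0956), and with the replicate block (edgeR adjusted p = 0.0702).

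Ncam1 encodes NCAM, the receptor through which GDNF and GFRα1 can act without RET. It was the single gene of this list called between genotypes in injured nerves (1 of 11, or 9.09%, beside 8.54% over all tested genes). Injured controls had 64.5 to 88.9 CPM and injured RaptorKOs 34.4 to 46.1 CPM. The groups did not overlap, with a log2 difference of -0.89 ± 0.15 (edgeR adjusted p = 0.00497). The response of Ncam1 to injury also differed between genotypes, by -0.90 ± 0.18 (edgeR adjusted p = 0.0165), but not without both libraries of control replicate 3 (edgeR adjusted p = 0.064). In contralateral nerves Met was lower in RaptorKOs (-0.65 ± 0.11, edgeR adjusted p = 0.00416) and Sorl1 higher (1.04 ± 0.23, edgeR adjusted p = 0.0182). The Sorl1 call was lost without control contralateral 1 (edgeR adjusted p = 0.0839) or control contralateral 3 (edgeR adjusted p = 0.0722). Gfral, the receptor of the distant relative GDF15, had 0 counts in all 13 libraries.

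**Figure D4:**
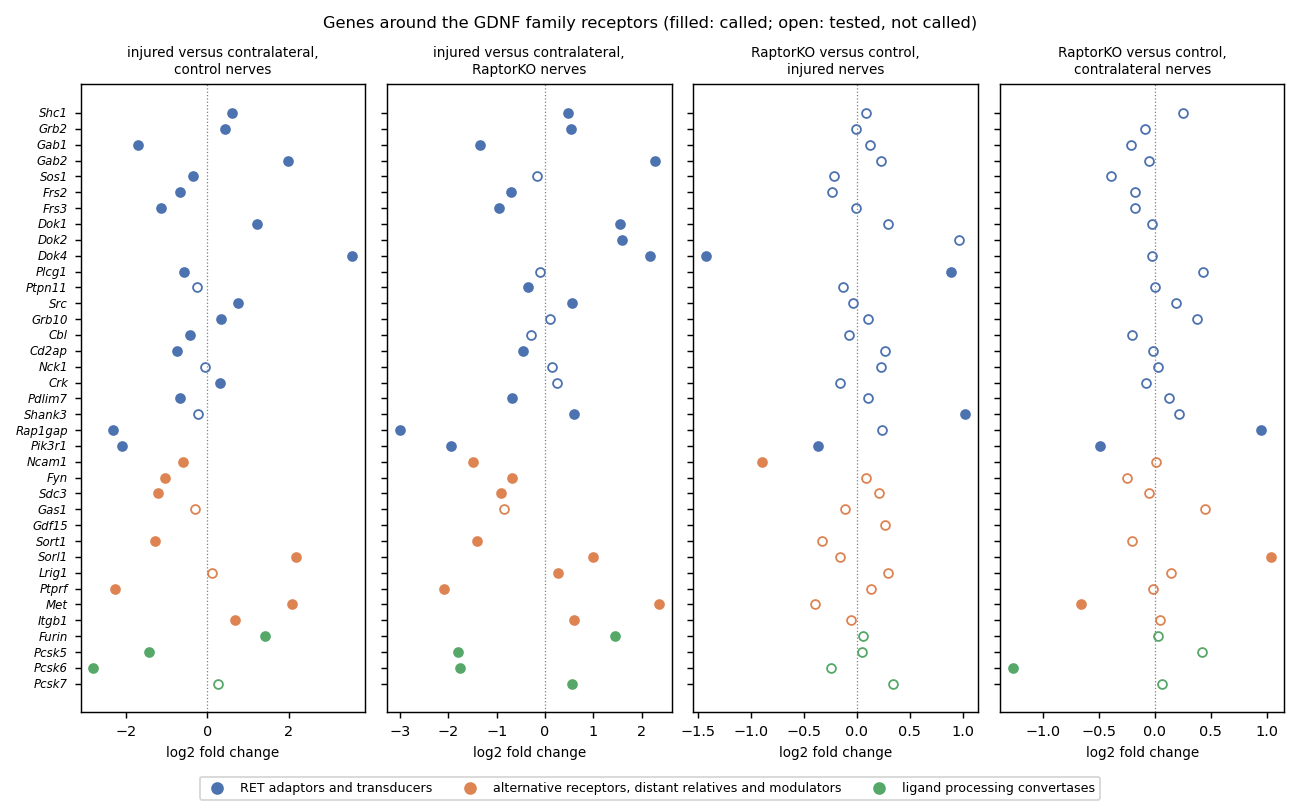
Log2 fold change (horizontal axes, with a scale of their own in each panel) of the genes tested in the 3 lists, 1 gene per line, with filled points for called genes and colours for the list. Dok4 and Ncam1 are the lowest points between injured RaptorKOs and controls, at -1.42 and -0.89, and Pcsk6 is the lowest in contralateral nerves at -1.27.

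The third list holds 5 proprotein convertases, enzymes that cut secreted precursors such as those of these ligands. In controls Pcsk6 (-2.80 ± 0.14) and Pcsk5 (-1.45 ± 0.19) fell with injury and Furin (1.40 ± 0.11) rose, 3 of 4 tested genes (75%, beside 65.3% over all tested genes). In RaptorKOs all 4 tested genes were called (58.9% over all tested genes), with Pcsk5 (-1.80) and Pcsk6 (-1.76) lower and Furin (1.46) and Pcsk7 (0.55) higher. Between genotypes edgeR called 0 of 4 in injured nerves and 1 of 4 in contralateral nerves, beside 8.54 and 10.2% over all tested genes. That gene was Pcsk6, with 104 to 119 CPM in uninjured controls and 41.1 to 51.1 CPM in uninjured RaptorKOs (log2 difference -1.27 ± 0.095, edgeR adjusted p = 6.16e-05).

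The genes most like each member were sought by Pearson's r of log2 CPM over the 13 libraries, which share the 4 groups and are dominated by injury. Gdnf was nearest to Clic1 (r = 0.992), Lasp1 (0.992), and Emp1 (0.991), and Artn to Ccne2 (0.996), Rgs16 (0.995), and Lgals3 (0.995). Gfra1 was nearest to Tenm3 (0.997), Pde8a (0.997), and Rassf3 (0.996). Ret was nearest to Nupr1 (0.956), Lamb2 (0.950), and Cyp27a1 (0.949), and Gfra2 to Chst12 (0.951), Gfm2 (0.944), and Sh3d21 (0.938). Gfra3 had no gene as near, with Ndufv3 (0.854), Tfip11 (0.826), and Nyap1 (0.815) as the first. Among the members themselves, Gdnf, Artn, and Gfra1 had r of 0.967 to 0.984 with each other. Within groups, with the group means removed, these 3 pairs had r between -0.53 and -0.05, so the high r over all libraries came from differences between groups. Uninjured nerves held 0 to 1 counts of Artn and 2 to 20 of Gdnf, in groups of 3 or 4. Whether these genes vary together among nerves of a group therefore cannot be told from these values.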

How the data were processed

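The authors trimmed the reads with Trimmomatic, aligned them to GRCm38, and estimated gene counts with RSEM 1.2.22, and the deposited table holds these expected counts, not scaled for depth. Reads that fit more than 1 gene are divided among them by RSEM, and 24.9 to 27.9% of the nonzero values per library were not whole. They were rounded here. Gene models came from GENCODE for the same build, and 40550 of 40787 genes matched by ID. The kit was stranded, but whether counting used strand is not given in the sources used here.

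Groups were taken from the sample labels. The software was edgeR 4.0.16, DESeq2 1.42.0, and limma 3.58.1 under R 4.3.3, and scipy 1.17.1 and matplotlib 3.10.9 under Python 3.11.15. Each comparison was fitted on its own libraries, and the interaction on all 13. Fold changes use a prior count of 0.125. SE is the log2 fold change divided by the square root of F. Members below the count minimum were compared by exact two-sided permutation tests of CPM with scipy. Replicates of a group were different mice by the study's description. Library depth limits what low counts can show. The test was tried on simulated data first.

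The members, the 3 lists, the markers, and the tests were chosen with earlier results of these data known. One gene of the SC marker list is not reported here and was left out of its values. All 9 members were named. Of each list, up to 3 called genes per direction with the largest change and no overlap between groups were named, and for each tested member the 3 genes most like it. Gm16277, Mir6973b, Gfral, and the rise of Sorl1 in RaptorKOs were named for other reasons, after values were seen. Alternatives were DESeq2, the exact test, RLE factors, no filter, filterByExpr, a stricter threshold, single libraries left out, both libraries of control replicate 3 left out, all 13 libraries in one fit, and a replicate block. A prior count of 2 and keeping the genes of the full comparison were added after the data were seen. Crush was unilateral and both sides carry the same replicate numbers, but the labels do not say that a number marks 1 mouse. Deviations of injured and contralateral libraries of the same genotype and number from their group means correlated at -0.018 to 0.228. Those of different numbers within a genotype correlated at -0.296 to 0.136. Libraries of the same number but different genotype, which cannot be 1 mouse, reached 0.323, so these correlations did not settle the pairing. The study calls the contralateral nerves the corresponding ones, and control replicate 3 had high Xist counts on both sides. Pairing is therefore likely, and the main fit, which has no block, ignores it. The blocked value is given beside an injury result where it changes the call.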

Additional observations from a re-analysis of the deposited data

Results flagged for a closer look

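Gfra3 differed between genotypes in its response to injury, by a test of the difference itself: the interaction was -4.17 ± 0.99 on the log2 scale (edgeR adjusted p = 0.0386), with 30 to 65 counts in injured controls and 1 to 8 in injured RaptorKOs. It was not a call in 10 of 13 analyses without 1 library, at an adjusted p below 0.01, or without both libraries of control replicate 3 (edgeR adjusted p = 0.133 with the genes of the full comparison kept), and Gfra3 passed the count minimum only through injured controls. In the group of 4 RaptorKO contralateral nerves, Gfra1 was set apart by replicate 4, at 295 CPM against 243 to 251 CPM in the others, a gap of 0.861 of the range, above Dixon's critical value at 95%. Artn in the same group was set apart by the single count of RaptorKO contralateral 2, a gap of 1 of the range, which is no more than 1 read. By chance about 1 in 20 groups is set apart in this way, and groups of 3 were not examined.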

How the results depend on the processing

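Of 460 alternative values of the family members, 421 kept their direction and their side of the threshold, 13 became calls, 15 lost their call, and 11 changed sign. In injured nerves, members called lower in RaptorKOs went from 1 to 0 without both libraries of control replicate 3 and ranged from 0 to 1 without single libraries, since Gfra3 then fell below the count minimum. Members called higher went from 0 to 1 with DESeq2 and 1 with the exact test (Ret). For injury in controls, members called lower were 1 at an adjusted p below 0.01 and 1 without both libraries of control replicate 3 (1 to 2 without single libraries), and members called higher were 2 without both libraries and 2 to 4 without single ones (2 without control injured 3, when Artn and Gfra3 fell below the minimum). For injury in RaptorKOs, members called lower were 2 with DESeq2, the exact test, RLE factors, and all 13 libraries, 3 with filterByExpr, 4 without a filter, and 1 to 2 without single libraries. The interaction had 0 members called lower at the stricter threshold and 0 without both libraries of control replicate 3 (0 to 1 without single libraries). The cause of these changes was not tested, other than that genes were no longer or newly tested.

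With a replicate block, 1 member was called higher in contralateral RaptorKOs (Ret, log2 difference 0.77, edgeR adjusted p = 0.0231) and 2 were called lower with injury in RaptorKOs (Ret, edgeR adjusted p = 0.00348). The block moved the interaction of Gfra1 to 0.017 and took the call of Pik3r1 in injured nerves (edgeR adjusted p = 0.0928) and of Lrig1 (edgeR adjusted p = 0.0702). Between sides, equal numbers may mark the nerves of 1 mouse. Between genotypes they cannot, so the block then has no such meaning.

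No value that changed sign was a call. Artn between injured genotypes was 0.15 without both libraries of control replicate 3, and -0.41 to 0.15 without single libraries. The interaction of Artn was 0.75 without both libraries and -1.85 to 1.62 without single ones, including 0.49, 0.40, 0.34, and 0.030. That of Gfra1 was -0.15 to 0.020 without single libraries, including 0.0094. RLE factors moved the median of all genes by at most -0.024. The fit without the count minimum could give quite other adjusted p than the main fit. Between injured genotypes the edgeR adjusted p of Dok4 was 1.19e-14 against 0.00322, and that of Pik3r1 was 0.0647 against 0.0456. Low counts limit Nrtn (0 to 6), Pspn and uninjured Artn (0 to 1), uninjured Gdnf (2 to 20), and Gfra4 (5 to 40).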
